A study of Mus musculus with 3 samples.

Results

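The genes described here are 9 antiviral genes of the mouse: the 2′-5′ oligoadenylate synthetase genes Oas2 and Oas3, their relatives Oasl1 and Oasl2, the 3 RIG-I-like receptor genes Ddx58, Ifih1 and Dhx58, the kinase gene Eif2ak2, and Mavs. They were picked by name, as 9 of the 22350 protein-coding genes annotated on chromosomes 1 to 19 and X. For each one, sequenced tags were counted by their 5′ ends over the gene and within 1 kb on either side of its transcription start site (TSS, the start of the transcript with the longest coding sequence), and the deposited peaks were placed on it. The study set out to map RNA polymerase II along the macrophage genome, and these data hold its form phosphorylated at Ser5 of the C-terminal repeat (Ser5), which is found on polymerase that has begun transcription. The cells were primary bone marrow-derived macrophages of female Fvb mice (Fvb/Hsd in the study's methods), on the 7th day of culture in medium conditioned by L929 cells. Chromatin immunoprecipitation with an antibody to Ser5 was done in untreated (UT) cells and in cells given 10 ng/ml lipopolysaccharide (LPS) for 2 h, and input DNA came from untreated cells only. Each of the 3 conditions was a single library, so nothing measures the spread between cultures, no test between conditions was possible, and every interval given covers counting error only. A gene was called higher or lower after LPS where the ratio of tags, scaled to the tags of each library, was at least 2-fold with at least 10 tags over both libraries.

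LPS is a component of the bacterial outer membrane that macrophages sense through Toll-like receptor 4, and part of the response runs through type I interferon. The members serve the recognition of foreign RNA: oligoadenylate synthetases are switched on by double-stranded RNA and make a small messenger that sets off the breakdown of RNA, RIG-I-like receptors bind viral RNA in the cytosol and signal through the adaptor MAVS on mitochondria, and protein kinase R halts translation when it meets double-stranded RNA. Most of these genes are textbook targets of interferon, whose signal ends at a promoter element called the interferon-stimulated response element (ISRE).

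The libraries held 7616771 (UT), 6249819 (LPS) and 7533308 (input) tags on chromosomes 1 to 19 and X, and densities are given as tags per 1000000 of these tags and per kb (TPM per kb). The labels were checked on genes known to respond to LPS, and 8 of 8 (Tnf, Il1b, Il6, Il12b, Nos2, Ptgs2, Cxcl10 and Ccl5) were higher in the library labelled LPS, with ratios from 9.62 to 396. Over 8 macrophage markers the summed density was 221 in UT, 135 after LPS and 9.08 in input. Lyz2 alone gave 105 of the sum in UT. After LPS 4 of the 8 were lower and 1 higher, and Itgam (0.444) was then below its input (0.725). Over all 17386 protein-coding genes with at least 10 tags, 5.83% were higher and 11.3% lower. The sums over the markers of T cells, B cells, neutrophils, dendritic cells and fibroblasts were between 0.609 and 5.39 in the Ser5 libraries against 1.91 to 3.47 in input. The T cell sum was above its input (3.47) in UT (5.39) and after LPS (4.53) through Cd3d (136 and 76 tags) and Lck (312 and 281 tags). Lck had a TSS peak in both Ser5 libraries. The other T cell markers, Cd3e, Cd3g, Cd2 and Cd8a, were below input in density in both. The dendritic cell sum after LPS (2.73) was above its input (2.37) through Xcr1 (72 to 133 tags). Of the neutrophil markers, Camp went from 11 to 29 tags (14 in input), with a TSS peak after LPS only.

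The promoters are shown because 6 of the 9 hold the letters of an ISRE at their start. Sequence of the mm9 build was searched on both strands from 250 bases before to 50 after each TSS for GAAANNGAA, the core of an ISRE. Oas2, Oas3, Ddx58, Ifih1, Dhx58 and Eif2ak2 had such a match, as did 9.02% of all 22350 promoters. The stretches below run from 100 bases before to 30 after the TSS, 5′ to 3′ on the gene's strand, and capitals mark the matches (on either strand). In Oas3 and Eif2ak2 a pair of matches overlap, so that the capitals form 1 longer run, and for Eif2ak2, whose matches lie just past the TSS, the site alone is shown. Ifih1 has another match that begins 156 bases before the TSS, outside the stretch shown.
Oas2 (chr5:121199833-121199962, minus strand): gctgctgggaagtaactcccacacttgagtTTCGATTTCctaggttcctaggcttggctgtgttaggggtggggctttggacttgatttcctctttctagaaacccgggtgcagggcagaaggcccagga
Oas3 (chr5:121227641-121227770, minus strand): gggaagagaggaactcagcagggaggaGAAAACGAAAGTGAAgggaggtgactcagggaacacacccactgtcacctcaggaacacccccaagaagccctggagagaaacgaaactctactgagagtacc
Ddx58 (chr4:40186832-40186961, minus strand): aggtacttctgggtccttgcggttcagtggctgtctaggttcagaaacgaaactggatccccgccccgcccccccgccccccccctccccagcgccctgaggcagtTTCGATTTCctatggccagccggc
Ifih1 (chr2:62484239-62484368, minus strand): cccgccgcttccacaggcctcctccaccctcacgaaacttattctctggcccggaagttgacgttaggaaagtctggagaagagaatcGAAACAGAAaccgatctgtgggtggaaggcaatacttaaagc
Dhx58 (chr11:100565556-100565685, minus strand): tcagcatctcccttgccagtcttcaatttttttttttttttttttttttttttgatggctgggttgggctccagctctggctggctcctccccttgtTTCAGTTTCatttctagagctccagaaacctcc
Eif2ak2 (chr17:79281874-79281898, minus strand): ccggGAAAACGAAACAGAAgagaac

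Oasl1, Oasl2 and Mavs had no GAAANNGAA in that window. For Oasl1 and Mavs the same stretch follows, with the NF-kB consensus in capitals for Oasl1, where 2 overlapping matches begin 38 and 37 bases before the TSS. Such a match was in 9.16% of all promoters and, among the members, in Oasl1 and Oas3. The Mavs stretch held neither.
Oasl1 (chr5:115373173-115373302, plus strand): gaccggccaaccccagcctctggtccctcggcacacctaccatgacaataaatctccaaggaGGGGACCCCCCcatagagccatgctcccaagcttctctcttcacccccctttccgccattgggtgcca
Mavs (chr2:131059703-131059832, plus strand): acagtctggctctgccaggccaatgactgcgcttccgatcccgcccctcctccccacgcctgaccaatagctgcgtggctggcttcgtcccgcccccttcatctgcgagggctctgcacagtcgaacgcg

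In the wider window of 1 kb on either side, chosen after the values were seen, all 9 members had a GAAANNGAA, but so did 46.5% of all promoters. The 2 matches of Oasl2 in that window begin 535 and 564 bases past its annotated TSS, inside the 927-base first exon of its main transcript, and they are shown here because they lie within the densest 500 bp of Ser5 at Oasl2 (below).
Oasl2, first site (chr5:115347474-115347492, plus strand): gcagtTTCACTTTCaattc
Oasl2, second site (chr5:115347503-115347521, plus strand): ttggtTTCTGTTTCcagtt
Of the other motifs searched in the narrow window, TTCNNNGAA (GAS-type) was in Eif2ak2 only and in 7.85% of all promoters, TGANTCA (AP-1-type) in Oas3 only and in 6.79%, and TATAAA in Oasl2 and Ddx58 and in 13.4%. GAGGAAG (PU.1-type) was in none of the 9 and in 13.5%. A match is a description of the sequence, and no factor binding was measured here.

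After LPS, 7 of the 9 genes were at least 2-fold higher in Ser5 over the gene, which held for 5.83% of the 17386 protein-coding genes with at least 10 tags. Mavs was the 1 member that was at least 2-fold lower, as were 11.3% of all genes, and Oas2 lay between at 1.68-fold. The median ratio of the members was 2.54 against 0.874 over those genes. Within 1 kb of the TSS, 6 of 9 were higher (5.71% of 12580 genes with at least 10 tags) and 1 of 9, again Mavs, was lower (14.0%), with a median of 2.85 against 0.834. In a bulk culture, more cells with polymerase on a gene and more polymerase per cell cannot be told apart.

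**Figure D1:**
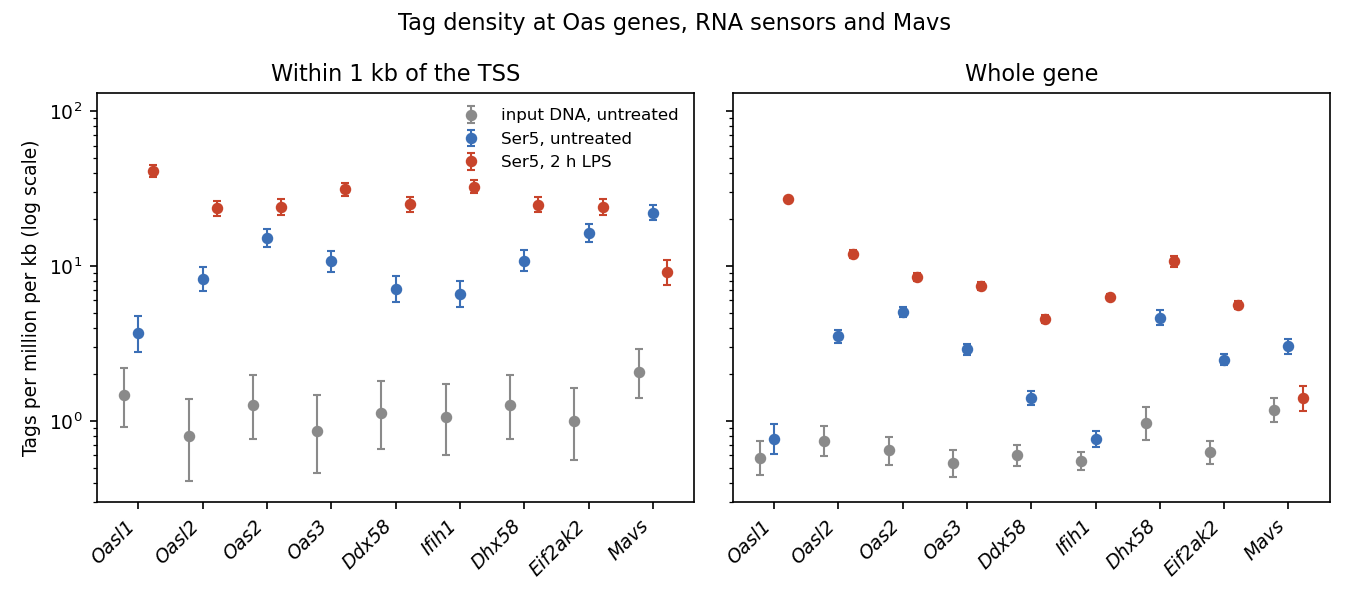
Tag density (TPM per kb, log scale) within 1 kb of the TSS (left) and over the whole gene (right) for the 9 genes in input DNA (grey), untreated Ser5 (blue) and Ser5 after 2 h LPS (red), 1 library each; bars are exact Poisson 95% intervals for counting error. Over the gene, untreated Oasl1 (0.769) and Ifih1 (0.767) sit next to input when scaled to all tags and rise to 27.0 and 6.30, and Mavs alone falls.

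Oasl1 stood apart from the other members. Its product lacks the synthetase activity of its relatives and is known as a brake on the translation of Irf7. Over the gene (chr5:115373249-115387924) 86 tags were counted in UT, 2476 after LPS and 64 in input, or 0.769, 27.0 and 0.579 TPM per kb. UT was thus 1.33 times input (95% interval 0.950 to 1.87), an interval that includes 1. Scaled to the tags outside peaks UT was 2.54 times input (1.82 to 3.57). LPS was 35.1 times UT (28.3 to 44.0), which placed Oasl1 at rank 15 of 17386 genes. The stretch around its TSS was not empty before LPS. The 2 kb around the TSS held 56 tags in UT against 22 in input, 2.52 times (1.51 to 4.33) after scaling, and 512 after LPS. The opposite-strand transcript Gm13822 overlaps this TSS, and Ser5 of the 2 could not be separated there. In the 1 kb before the gene lay 35 tags in UT, 136 after LPS and 14 in input. Peaks covered 1.79% of the gene in UT, as 1 peak at the TSS, and 93.2% after LPS.

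Oasl2, which has kept synthetase activity, lies 11.0 kb upstream of Oasl1 on the same strand (chr5:115346943-115362243). Its tags went from 409 in UT to 1148 after LPS, with 86 in input, a ratio of 3.42 (3.05 to 3.84). Before LPS it was above input by more than Oasl1 was, 4.70 times (3.72 to 6.01). The densest 500 bp of Oasl2 were centred 648 bp past the annotated TSS in UT and 698 bp after LPS, a stretch that in both libraries held the pair of ISRE-type matches shown above, and annotated alternative transcripts begin 641 and 807 bases past the TSS. In the other 8 genes the densest window was centred between 80 bp before and 226 bp past the TSS in both Ser5 libraries. The stretch between Oasl2 and Oasl1 gained Ser5 as well, from 170 to 850 tags (59 in input), 6.09 times (5.16 to 7.23). Within it, a peak called in both libraries was centred at −1100 bp from the Oasl1 TSS in UT, inside the antisense transcript Gm13822, and over its extent in the LPS library the tags went from 57 to 276. ChIP tags do not carry the strand of a transcript, so Ser5 from polymerase leaving Oasl2, from Gm13822 and from Oasl1 could not be separated here.

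Oas2 and Oas3, which make that messenger, are neighbours on the minus strand of chromosome 5, and both were above input before LPS, by 7.78 and 5.43 times. Oas2 (chr5:121180342-121199862) had 747 tags in UT, 1032 after LPS and 95 in input. At 5.02 TPM per kb it was the highest member in UT, and its ratio of 1.68 (1.53 to 1.85) was the smallest of the 8 above 1. Oas3 (chr5:121203107-121227670) went from 544 to 1135 tags with 99 in input, a ratio of 2.54 (2.29 to 2.82). At the TSS the Oas3 ratio was 2.91 (2.42 to 3.51) and that of Oas2 1.58 (1.32 to 1.88), so the intervals of the neighbours did not overlap at either place. The 3.24 kb between them went from 166 to 257 tags, 1.89 times (1.55 to 2.31). Just past the 3′ end of Oas2 a peak of 148 tags in UT held 142 after LPS, 1.17 times (0.922 to 1.48), with 8 in input.

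**Figure D2:**
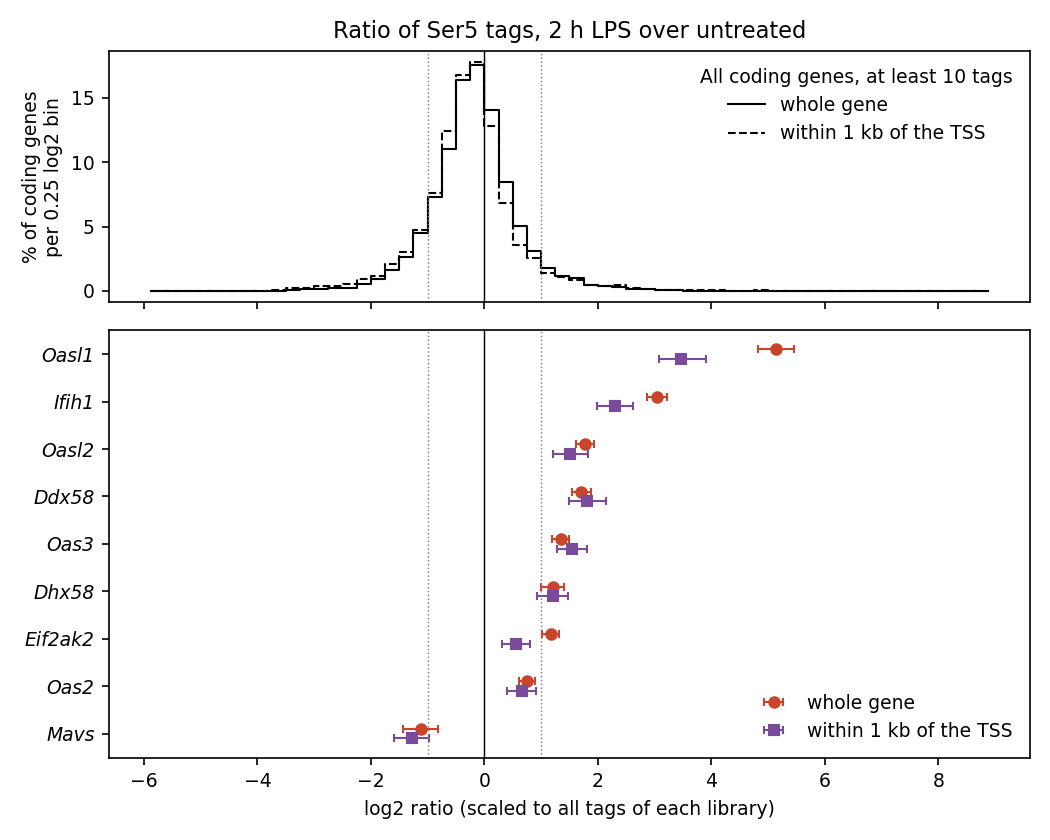
Top, the share of protein-coding genes with at least 10 tags (and 1 or more in each Ser5 library) by their log2 ratio of Ser5 tags, LPS over untreated, in bins of 0.25. Bottom, the 9 genes over the whole gene (circles) and within 1 kb of the TSS (squares), with exact 95% intervals for counting error; dotted lines mark 2-fold. Oasl1 (35.1) and Ifih1 (8.21) lie far out in the upper tail of the genes above, and Mavs (0.462) lies on the lower side.

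The RIG-I-like receptors rose at all 3 genes, to differing extents. Ifih1 encodes MDA5, which binds long double-stranded RNA. Over the gene (chr2:62433850-62484312) it had 295 tags in UT, 1987 after LPS and 210 in input, 8.21 times (7.26 to 9.31) higher after LPS and at rank 65 of 17386. In UT, Ser5 at Ifih1 was densest at the 5′ end. Scaled to all tags, Ser5 past the first kb was 1.07 times input (0.882 to 1.30), while at the TSS it was 6.24 times input (3.66 to 11.3). Scaling to the tags outside peaks makes each ratio of UT to input 1.91 times higher. Whether the part past the first kb stood above input in UT thus depended on the scaling. After LPS the part past the first kb was 9.83 times input (8.49 to 11.4), and the peaks in the gene went from 1 to 54, covering 0.713% and then 55.7% of it.

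Ddx58 encodes RIG-I, the receptor for RNA with a 5′ triphosphate. Its 384 tags in UT became 1029 after LPS, with 164 in input (chr4:40150806-40186861), a ratio of 3.27 (2.90 to 3.68). The TSS rose by about as much, 3.51 times (2.81 to 4.41). Dhx58 encodes LGP2, which binds RNA but lacks the signalling domains of the other receptors. It is the shortest member at 9.57 kb (chr11:100556018-100565585) and went from 339 to 640 tags with 70 in input, 2.30 times (2.01 to 2.63), and by the same 2.30 at the TSS. The noncoding Gm11547 on the opposite strand overlaps its 3′ end. Kat2a, whose 3′ end lies 475 bp before the Dhx58 TSS, went from 194 to 91 tags or 0.572 times (0.441 to 0.737).

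Eif2ak2 encodes protein kinase R. It held 569 tags in UT, 1052 after LPS and 142 in input (chr17:79251904-79281913), 2.25 times (2.03 to 2.50). Its TSS passed from 250 to 302 tags, 1.47 times (1.24 to 1.75), below the 2-fold mark and below the interval of its own gene. That TSS is overlapped by the opposite-strand lincRNA Gm16825, and outside other annotated genes the ratio of Eif2ak2 was 2.53.

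Mavs encodes the adaptor through which RIG-I and MDA5 signal, and it moved against the rest. In UT its TSS was the fullest of the 9, with 337 tags or 22.1 TPM per kb (input 31 tags), and after LPS it was the lowest, with 114 tags or 9.12. That is a ratio of 0.412 (0.330 to 0.511). Over the gene (chr2:131059799-131073761) the tags fell from 322 to 122, a ratio of 0.462 (0.372 to 0.570), and with 124 tags in input the level after LPS was 1.19 times input (0.916 to 1.54), an interval that includes 1; scaled to the tags outside peaks it was 2.44 times input (1.89 to 3.16). The peak at its TSS was still called after LPS. The neighbours differed: Pank2 on the right was at 1.00 (0.890 to 1.13) and 2310035K24Rik on the left at 0.618 (0.513 to 0.743).

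Set in order, the ratios over the gene ran Oasl1, Ifih1, Oasl2, Ddx58, Oas3, Dhx58, Eif2ak2, Oas2 and Mavs. The counting intervals of Oasl2 and Ddx58 overlapped, as did those of Oas3, Dhx58 and Eif2ak2, and every other pair of neighbours in this order was apart by counting error. By level in UT the order was Oas2 (5.02 TPM per kb), Dhx58 (4.65), Oasl2 (3.51), Mavs (3.03), Oas3 (2.91), Eif2ak2 (2.49), Ddx58 (1.40), Oasl1 (0.769) and Ifih1 (0.767). The median of all coding genes was 0.420. In that order the intervals of Oas2 and Dhx58, of Oasl2 and Mavs, of Mavs and Oas3, of Oas3 and Eif2ak2, and of Oasl1 and Ifih1 overlapped. After LPS the order was Oasl1 (27.0), Oasl2 (12.0), Dhx58 (10.7), Oas2 (8.46), Oas3 (7.39), Ifih1 (6.30), Eif2ak2 (5.61), Ddx58 (4.57) and Mavs (1.40). Only the intervals of Oasl2 and Dhx58 overlapped among these neighbours.

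Before LPS, 7 of the 9 genes were at least 2-fold above input (37.6% of genes with at least 10 tags), all but Oasl1 (1.33) and Ifih1 (1.39), and after LPS 8 of 9 were (32.9%), all but Mavs (1.19). Mavs passed in UT through its 5′ end, since without the first kb it was at 1.69 (1.31 to 2.18). Scaled to the tags outside peaks, in place of all tags, the ratios of UT to input were 1.91 times higher for every gene and those of LPS to input 2.06 times. All 9 members then passed in UT, with Oasl1 at 2.54 and Ifih1 at 2.66, as did 55.1% of all genes, and all 9 after LPS, with Mavs at 2.44, as did 51.8%. The exceptions in either library thus depended on the scaling. A Ser5 peak lay within 1 kb of the TSS at 9 of 9 genes in UT (47.9% of all coding genes) and at 9 of 9 after LPS (45.9%).

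**Figure D3:**
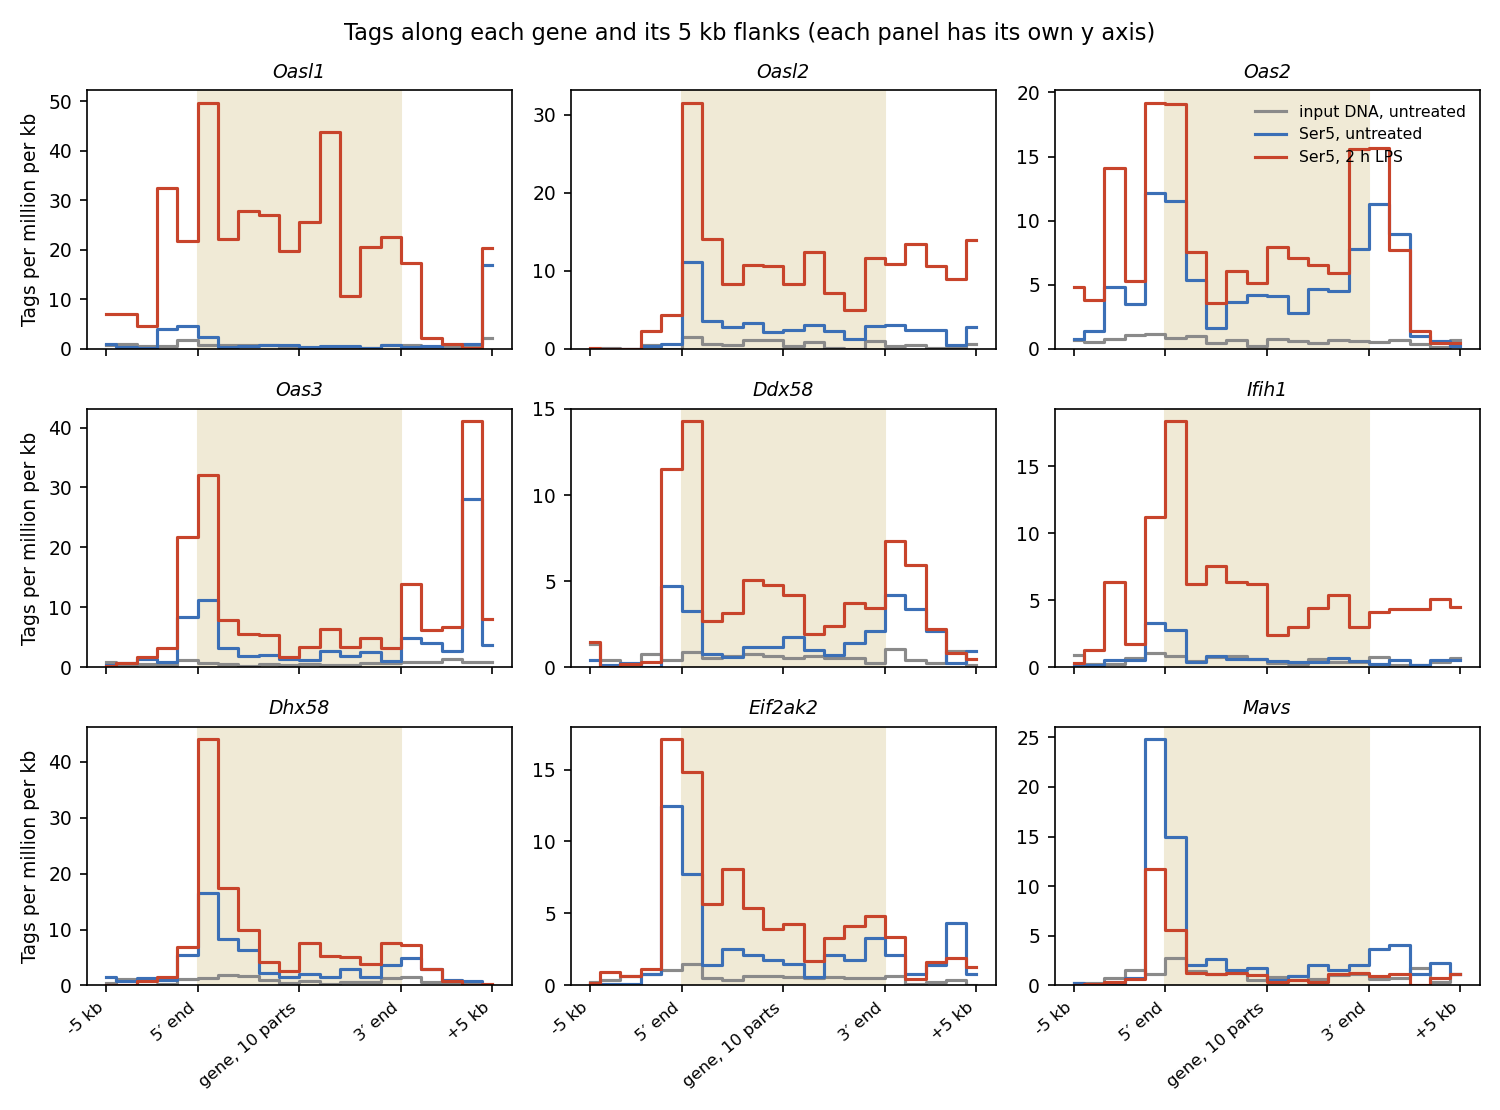
Tags (TPM per kb) in 10 equal parts of each gene (shaded) and in 1 kb steps over 5 kb on either side, read 5′ to 3′, in input (grey), untreated Ser5 (blue) and Ser5 after LPS (red); each panel has its own axis. After LPS Oasl1 and Ifih1 fill along their whole length, Ser5 is also higher past the 3′ ends of Oasl2 and Ifih1, and Mavs falls at its 5′ end.

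How Ser5 was spread along the genes differed between members. The ratio of the density within 1 kb of the TSS to the density past the first kb was between 3.13 (Oasl2) and 12.5 (Mavs) in UT and between 1.16 and 2.68 in input. After LPS it fell at Oasl1 from 6.26 (4.28 to 9.15) to 1.67 (1.52 to 1.84), below its input value of 2.68 (1.56 to 4.46). The LPS ratio past the first kb of Oasl1 was 41.7 (32.3 to 54.7), against 11.1 (8.44 to 15.0) at its TSS. That TSS window also takes in the start of the opposite-strand Gm13822, so its values are not a reading of Oasl1 alone. Ifih1 went the same way, from 11.4 to 6.11, or 0.537 times its UT value (0.412 to 0.704), as did Eif2ak2, from 8.75 to 5.11 (0.584, 0.473 to 0.720), and by less Oasl2, from 3.13 to 2.40 (0.766, 0.595 to 0.991). With a TSS window of 500 bp the fall at Oasl2 was no longer apart from 1 (0.937, 0.642 to 1.39), while Oasl1 (0.359, 0.224 to 0.584), Ifih1 (0.486, 0.364 to 0.653) and Eif2ak2 (0.571, 0.459 to 0.711) still fell. The opposite-strand Gm16825 overlaps the TSS window of Eif2ak2 at either size, so the fall there is not a reading of Eif2ak2 alone. For Oas2, Oas3, Ddx58, Dhx58 and Mavs the bias after LPS was between 0.727 and 1.20 times that in UT, with intervals that include 1. Oasl1 and Ifih1, the members with the largest rise, were also the 2 whose tags past the first kb, scaled to all tags, were at 1.08 and 1.07 times input in UT, with intervals that include 1. The UT tags enter both the rise and the ratio to input, so these are not independent observations.

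**Figure D4:**
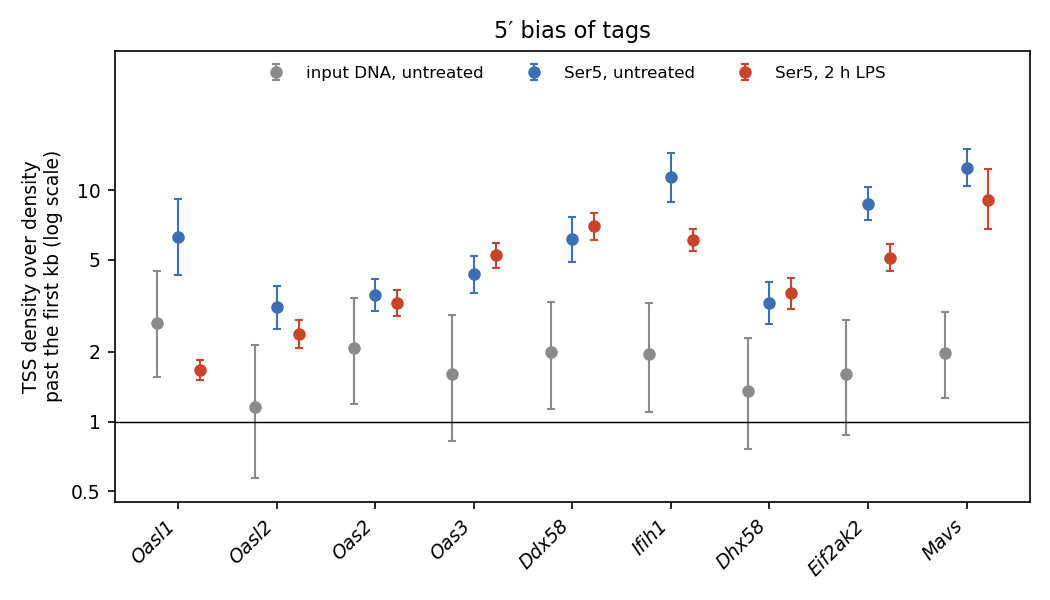
Density within 1 kb of the TSS over the density past the first kb (log scale) for each gene and library, with exact 95% intervals for counting error; 1 means no 5′ bias. Oasl1 drops from 6.26 to 1.67 and Ifih1 from 11.4 to 6.11 after LPS, while Ddx58 (6.14 and 6.99) and Dhx58 (3.27 and 3.58) keep overlapping intervals.

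Past the annotated 3′ ends, Ser5 rose after LPS downstream of Ifih1 and Oasl2 and, by less, of Ddx58. The 5 kb after Ifih1 went from 15 to 140 tags (16 in input), 11.4 times (6.66 to 20.9), and the nearest coding genes, Fap and Gca, lie 21718 bp past and 18030 bp before Ifih1. Within 20 kb of Ifih1 and outside any gene lay 8 peaks after LPS and 0 in UT. The 5 kb after Oasl2 went from 86 to 361 tags (15 in input), 5.12 times (4.03 to 6.55), more than Oasl2 itself. They lie between Oasl2 and Oasl1, where the sources of Ser5 could not be separated. The 5 kb after Ddx58, which reach the 3′ end of Aco1, went from 83 to 105 tags (21 in input), 1.54 times (1.15 to 2.08), below the ratio of Ddx58 itself. For Oas2, Dhx58 and Eif2ak2 the ratio over the next 5 kb was between 0.914 and 1.17, with intervals that include 1. The 5 kb after Dhx58 hold the start of Zfp385c (0.756) and part of Gm11547. Those after Eif2ak2 reach the 3′ end of Ccdc75 (0.858). The values past Dhx58 and Eif2ak2 are thus not readings of these 2 genes alone. In the 5 kb past their 3′ ends Oas3 and Oasl1 have the starts of Oas2 and of 2210016L21Rik, so their values are not read here. Mavs fell there too, from 94 to 25 tags (36 in input), 0.324 times (0.200 to 0.508).

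The next coding genes around the members, other than members, had ratios between 0.572 (Kat2a) and 2.03 (Gca), and of these 14 genes Gca alone was past 2-fold. The ratio was 1.07 at Dtx1 beyond Oas2, 0.838 at Oas1e beyond Oas3, 0.779 and 0.809 at Aco1 and Topors on either side of Ddx58, 0.988 at Fap beside Ifih1, and 0.756 at Zfp385c beside Dhx58. On the higher side, 2210016L21Rik beyond Oasl1 was at 1.54 (1.27 to 1.87), and 4930519G04Rik before Oasl2 was at 1.10 (0.679 to 1.77). Some of these neighbours had fewer tags in both Ser5 libraries than in input, so their ratios rest on counts below input. They were Dtx1 (41 and 36 tags, 92 in input), Oas1e (16 and 11, 24), Fap (58 and 47, 266) and 4930519G04Rik (40 and 36, 121). Beside Eif2ak2, Ccdc75 was at 0.858 and Sult6b1 at 1.50 (0.986 to 2.28), the latter with 44 and 54 tags against 109 in input. Gca, on the other side of Ifih1, was at 2.03 (1.43 to 2.90) with 54 and 90 tags, fewer than its 112 in input.

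The other genes of the pathway were read from lists, beside shares of 5.83% higher and 11.3% lower over all genes. Of the Oas1 genes, 2 of 7 with enough tags were higher and 0 lower. Oas1b, an Oas1 gene known for its part in resistance to flaviviruses, went from 337 to 693 tags (2.51, 2.20 to 2.86) and Oas1c from 81 to 151 (2.27), while Oas1a was at 1.89 (1.52 to 2.35). Their median was 1.62 against 0.874 over all genes. The Oas1 genes are close copies in 1 cluster, and the share of each that short tags can match uniquely was not computed.

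Among 13 regulators of the RIG-I-like receptors, 3 were higher (against 5.83% of all genes) and 1 lower (against 11.3%), with a median of 0.957. Trim25, the ubiquitin ligase that activates RIG-I, was at 2.30, Otud5, a deubiquitinase, at 2.73, and Isg15, a ubiquitin-like modifier, at 8.15 (6.06 to 11.2). Nlrx1, a mitochondrial protein reported to restrain MAVS, was at 0.486 (0.386 to 0.608). In the relay from Mavs to interferon 4 of 17 were higher (against 5.83%) and 2 lower (against 11.3%), with a median of 1.03. Tbk1 (2.10) and Ikbke (2.57), the kinases of this relay, were higher, as was the factor Irf7 (534 to 1147 tags, 2.62). Ifnb1, the interferon beta gene, went from 3 to 26 tags (7 in input), a ratio of 10.6 (3.24 to 54.5). Irf3, which is made at a steady level and activated by phosphorylation, was at 0.811 (0.686 to 0.958). The 2 that were lower, a number near the share of all genes, were Fadd (0.391) and Tmem173, which encodes STING (0.464).

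Of 9 eIF2α kinases and partners of protein kinase R, 1 was higher, a number near the 5.83% of all genes, and 0 lower (median 0.829): Ppp1r15a, a phosphatase subunit that reverses their effect, at 2.82. The other eIF2α kinase genes Eif2ak1, Eif2ak3 and Eif2ak4 were at 0.910, 0.575 and 0.531. Of 8 other nucleic acid sensors and editors found, 2 were higher, Zbp1 (4.42) and Ifi204 (6.89), and 0 lower (median 1.77). Ifi204 went from 26 to 147 tags with 24 in input, so its ratio rests on a UT count near input. Its TSS had a peak in UT but not after LPS. In type I interferon signalling 3 of 7 were higher and 0 lower (median 1.64), again beside 5.83% and 11.3% of all genes: Tyk2 (2.49), Stat2 (2.19) and Usp18 (3.80). These counts describe the libraries at hand, and no list was tested.

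**Figure D5:**
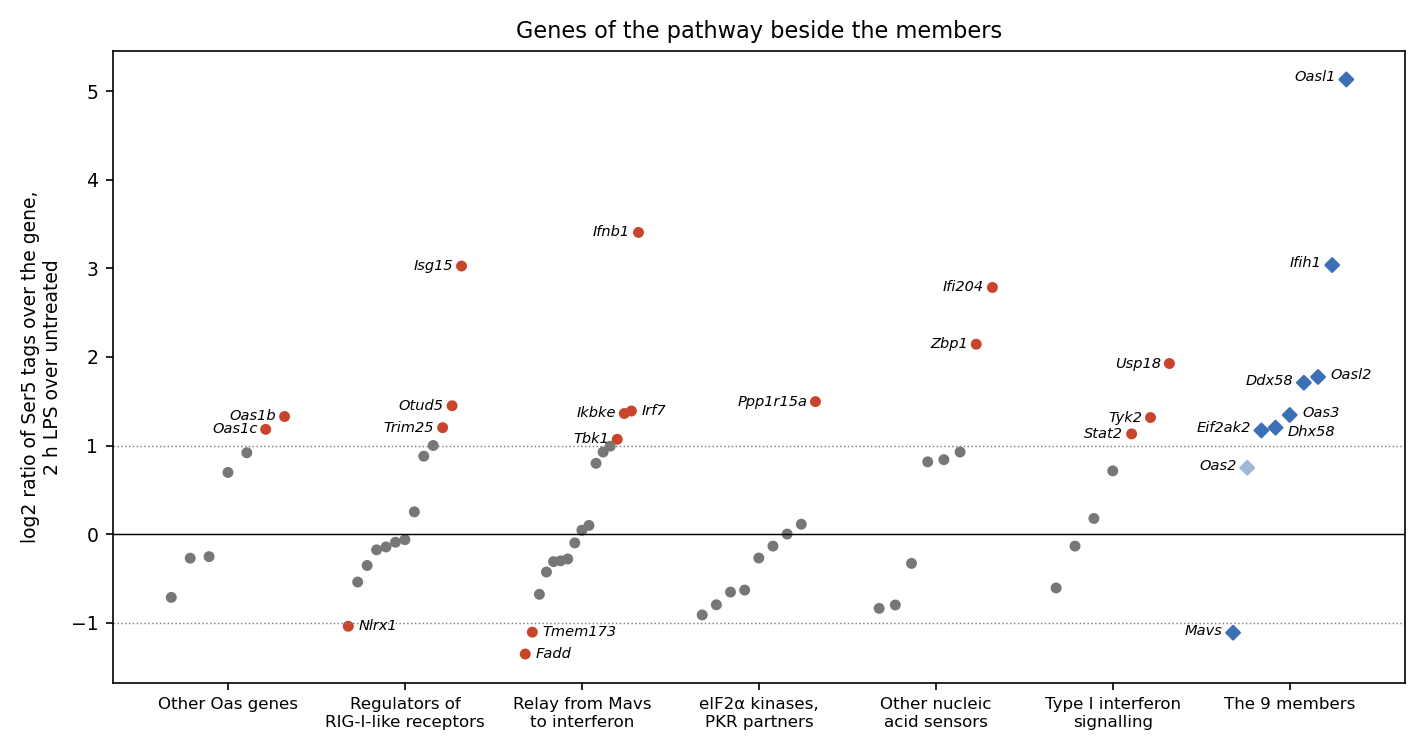
Log2 ratio of Ser5 tags over the gene, LPS over untreated, for the genes of 6 pathway lists (circles, red and named where past 2-fold) and for the 9 members (diamonds); dotted lines mark 2-fold and each group is sorted by value. Ifnb1 (10.6), Isg15 (8.15) and Ifi204 (6.89) come nearest to Ifih1 (8.21), and no point lies as high as Oasl1 (35.1). Ifnb1 rests on 3 and 26 tags, and its interval (3.24 to 54.5) includes the ratio of Oasl1. Fadd (0.391) and Tmem173 (0.464) lie below the lower 2-fold line.

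For the 7 members past 2-fold higher, the genes with the most alike densities were sought among 22235 coding genes outside the lists, by the distance over log2 densities in the 3 libraries. Oasl1 was nearest to Ifit1 (80 to 1812 tags, 27.6) and Art3 (25.3), although at distances of 0.890 and 0.931, farther than for any other member. Art3 extends antisense over Cxcl10, a stretch of 2.25 kb that held 4019 of its 7763 tags after LPS, so its ratio is not a reading of Art3 alone. Ifih1 was nearest to Rab11fip1 (6.20) and Igtp (9.55), at 0.327 and 0.339. For Oasl2 the nearest were Nfkbie (3.53, distance 0.102) and Blvrb (2.76, 0.264), and for Ddx58 Ppfibp2 (3.10, 0.244) and Slfn9 (3.09, 0.258). For Oas3 they were Mllt6 (2.25, 0.146) and Clcn7 (2.15, 0.187), for Dhx58 Spn (2.16, 0.0659) and Pik3ap1 (2.22, 0.123), and for Eif2ak2 Ppp6r1 (2.07, 0.170) and Nub1 (2.06, 0.174). With 3 libraries as the only points, such likeness is a description.

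The length of the tags differed between the libraries, 45 bases in UT, 30 after LPS and 36 in input, so fewer places are unique for the LPS tags. Of all positions in the members, between 88.7% (Ddx58) and 96.9% (Ifih1) were unique in mm9 at 30 bases and between 92.5% and 98.6% at 45. The shorter LPS tags had the lower share at each of the 9 genes, and the part of this in the ratios was not tested. For Mavs, which fell, the shares were 95.7% and 97.8%. Within 1 kb of the TSS the shares at 30 and 45 bases were 86.2% and 92.7% for Oasl2 and 93.1% and 98.5% for Ddx58. At the TSS of Oas2 they were 100% at both lengths. The part of this in the TSS ratios, the 5′ bias and the densest windows was not tested either.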

How the data were processed

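Ser5 ChIP-Seq of untreated and LPS-treated bone marrow-derived macrophages and input DNA of untreated cells were used, 1 library each. Per the study's methods and labels, the authors shortened the reads from the 3′ end, placed them on mm9 by Bowtie where the match was unique, and called MACS peaks in each Ser5 library against input. The deposited tag files give positions without counts, and the deposited peak score was read as a multiple of the −log10 of the MACS p, since its lowest value, 50.0, is a p of 1e-05. The 45-base (UT) and 30-base (LPS) tags are the reverse of the lengths that the methods give; the LPS response genes were high in the library labelled LPS. The aligner's version and the treatment of the input reads are not given in the sources used here. Reads of Fvb/Hsd mice were aligned to a reference of another strain. The start convention of the tag files was not stated and may move positions by 1 bp.

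All tags were counted by their 5′ ends, duplicates included (81.4% to 84.5% of tags were at distinct positions), over GENCODE M1 genes, with Python 3.11.15, numpy 2.4.6, pandas 2.3.3, scipy 1.17.1, numba 0.67.0 and matplotlib 3.10.9. Counts have exact Poisson 95% intervals and ratios exact intervals conditional on the sum. Peaks were assigned by an overlap of at least 1 bp. The interval code was tested on simulated counts. The 9 members and all lists were chosen with earlier results of these data known. Named were all members, all pathway list genes past the 2-fold rule that are reported here, Oas1a, Ifnb1, Irf3 and Irf7, and for each member past the rule the 2 genes with the smallest distance over log2(TPM per kb + 0.05). Other genes were named as neighbours, markers or kinases of the same family after their values were seen. Mb21d1 was not matched in the annotation, and 2 other list genes are not reported here. The alternatives were 1 tag per position and strand, tags moved by 75 bp, scaling to tags outside peaks, other gene and TSS definitions, a TSS window of 500 bp, peaks of p 1e-10, and other minimum tag numbers; that scaling for LPS against input, and the 500 bp window for the change of the 5′ bias, were added after the values were seen.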

Additional observations from a re-analysis of the deposited data

How the results depend on the processing

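No member changed direction after LPS under any alternative, and the numbers of members past the 2-fold rule and with a TSS peak stayed within 1.5 times of those reported. Scaling to tags outside the peaks raised every ratio of LPS to UT by 1.08 times (0.106 on the log2 scale) and every ratio of UT to input by 1.91 times (0.936 on the log2 scale), which took Oasl1 to 2.54 and Ifih1 to 2.66 over input in UT, and every ratio of LPS to input by 2.06 times, which took Mavs to 2.44 and past the 2-fold rule. Without the first kb, 6 members in place of 7 were 2-fold above input in UT, since Mavs was at 1.69. Without its first kb, or outside other genes, Eif2ak2 was 2.52 and 2.53 times higher after LPS. With a TSS window of 500 bp the 5′ bias was higher for all members in both libraries except Oasl2, where it was lower (2.18 in UT and 2.05 after LPS) and its fall after LPS was lost (0.937, 0.642 to 1.39), and Oasl1 in UT, which stayed within its interval. The wider motif window, chosen after seeing the data, gave 9 members in place of 6 with an ISRE-type match. No paired analysis was possible because each condition was a single library, and no library could be left out for the same reason. Depth limits Ifnb1 (3 and 26 Ser5 tags) and the untreated level of Oasl1 and Ifih1, whose difference from input depends on the scaling.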
